A study of Mus musculus with 8 samples.

Results

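The 9 genes described here encode receptors for acetylcholine: the 5 muscarinic receptors (Chrm1 to Chrm5) and 4 subunits of neuronal nicotinic receptors (Chrna4, Chrna5, Chrna7 and Chrnb2). They were taken by gene symbol from a table of read counts for 54532 genes in the medial prefrontal cortex (mPFC) of the mouse, in which all 9 were found. The tissue was taken from adult male C57BL/6 mice 1 h after a test of conditioned place preference (CPP), in which an animal shows whether it prefers a compartment it has learned to associate with a drug, here methamphetamine (METH). The retrieval group and the non-retrieval group had 4 libraries each, and every library was a pool of 2 to 3 mice. No genotype or transgene distinguishes the groups, and the labels do not describe what the non-retrieval mice experienced in place of retrieval. The comparison asked which transcripts differed in the mPFC when the METH-associated memory was retrieved.

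Acetylcholine reaches the mPFC mainly from basal forebrain neurons and acts there on attention, arousal and cue-driven learning. Muscarinic receptors are G protein-coupled receptors: M1, M3 and M5 couple to Gq/11, which activates phospholipase C and closes M-type potassium channels, whereas M2 and M4 couple to Gi/o, which lowers cyclic AMP and opens GIRK potassium channels. Nicotinic receptors are pentameric cation channels opened directly by acetylcholine or nicotine. In the cortex most of them are either alpha4-beta2 receptors, some with an alpha5 subunit, or alpha7 homomers.

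Among the muscarinic genes 1 rose and 1 fell, and none of the nicotinic genes passed the test. Chrm4, which encodes the Gi/o-coupled M4 receptor, rose by 51.9% in retrieval, and Chrm3, which encodes the Gq/11-coupled M3 receptor, fell by 19.2%. Chrm1, Chrm2, Chrna4, Chrna5, Chrna7 and Chrnb2 did not pass, and Chrm5 was too low to be tested. Of the 8 tested genes, 1 was thus called higher and 1 lower (edgeR quasi-likelihood test, Benjamini-Hochberg adjusted p under 0.05 over 16745 tested genes). Among all tested genes 4.57% were called, 3.67% higher and 0.902% lower, so 2 calls among 8 genes are to be read beside that background. The groups did not overlap for these same 2 genes, against 11.1% of all tested genes, and these 2 were also the only members at an unadjusted p under 0.05, against 18.5% of all tested genes. The members were chosen with earlier results of these data known, so these shares are not an independent comparison. The median log2 fold change (log2FC) was -0.04 over the 8 genes and -0.01 over all tested genes.

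Total counts per library lay between 25013503 and 29547978. The table as a whole gave 615 higher and 151 lower genes (80.3% higher), and 743 higher and 632 lower (54.0% higher) once gene length and GC content were corrected for. Of 10 markers of mature oligodendrocytes 6 rose, with a summed level of 3398 to 4008 CPM (reads scaled to a common library size with TMM factors) in non-retrieval and 4121 to 5980 CPM in retrieval. None of 10 markers of striatal projection neurons passed (summed level 319 to 373 CPM in non-retrieval and 313 to 525 CPM in retrieval), and retrieval replicate 2 was the highest library. The striatal markers with the smallest p, Drd1 (log2FC 0.38; edgeR adjusted p = 0.0716) and Drd2 (log2FC 1.23; edgeR adjusted p = 0.0720), had higher means in retrieval. The retrieval pools were widely spread for Drd2 (mean 3.41, SD 2.70, highest 7.45 CPM). Of the same list, Tac1 (log2FC -0.02) and Rasd2 (-0.06) had slightly lower retrieval means, and the remaining markers had higher ones. The cortical layer 5 markers Bcl11b, Fezf2 and Etv1 were present in every library, summing to 226 to 269 CPM in non-retrieval pools and 222 to 287 CPM in retrieval pools, and none of the 3 passed. Single markers of other cell types were called: Slc2a1, 1 of 5 endothelial markers and a glucose transporter, rose (log2FC 0.53; edgeR adjusted p = 0.000774), as did Ctgf, 1 of 7 markers of layer 6 and subplate (log2FC 0.66; edgeR adjusted p = 0.0193). Pvalb, which marks a class of GABAergic interneurons, fell, the only one of 6 interneuron markers to be called (log2FC -0.41; edgeR adjusted p = 0.0355). Of the pan-neuronal (4), upper-layer (4), astrocyte (6) and microglial (5) markers none was called. The neuronal Snap25 (log2FC -0.17, unadjusted p = 0.0124; edgeR adjusted p = 0.135) and the interneuron marker Gad1 (log2FC -0.15, unadjusted p = 0.0246; edgeR adjusted p = 0.193) had lower means in retrieval. In the same lists, Map2 (log2FC 0.11), Sst (0.06) and Vip (0.06) had higher means. Other uncalled markers with higher means included Gfap (log2FC 0.38, edgeR unadjusted p = 0.0149), Cux2 (0.19, edgeR unadjusted p = 0.0212) and Fezf2 (0.21, edgeR unadjusted p = 0.0223). Lower means were seen for the microglial P2ry12 (log2FC -0.22, edgeR unadjusted p = 0.0622) and the endothelial Cldn5 (-0.21, edgeR unadjusted p = 0.0887). Etv1, of the same layer 5 list as Fezf2, was also lower (-0.17, edgeR unadjusted p = 0.202). The part of these markers in the receptor differences was not tested.

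Chrm4 (ENSMUSG00000040495; GRCm38 chromosome 2, 91927249 to 91928688, plus strand) had 22.5, 25.9, 21.6 and 24.5 CPM in non-retrieval replicates 1 to 4. In retrieval replicates 1 to 4 it had 33.2, 38.2, 33.9 and 38.1 CPM. Every retrieval library was above every non-retrieval library, and the lowest retrieval value exceeded the highest non-retrieval value by more than the SD of either group. The means were 23.6 ± 1.95 and 35.8 ± 2.68 CPM (SD, n = 4), which is a log2FC of 0.60 (SE 0.08, 95% interval 0.43 to 0.78; edgeR adjusted p = 0.000376). By unadjusted p, Chrm4 ranked at position 57 among the 16745 tested genes. M4 receptors are known from projection neurons of the cortex and striatum and from axon terminals, where they restrain transmitter release.

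Chrm3 (ENSMUSG00000046159; chromosome 13, 9875486 to 10360847, minus strand) had 100.04, 94.9, 95.2 and 101 CPM in non-retrieval replicates 1 to 4. Its values in retrieval replicates 1 to 4 were 81.3, 77.8, 74.6 and 82.4 CPM. All 4 retrieval libraries were lower than all 4 non-retrieval libraries, with a wide gap between the groups. The means were 97.8 ± 3.25 and 79.0 ± 3.51 CPM (SD, n = 4), a log2FC of -0.31 (SE 0.06, 95% interval -0.44 to -0.18; edgeR adjusted p = 0.00734). It ranked at position 207 by unadjusted p. In tissue RNA, fewer cells of a type and less RNA per cell cannot be told apart, which holds for this fall and for all differences given here.

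**Figure D1:**
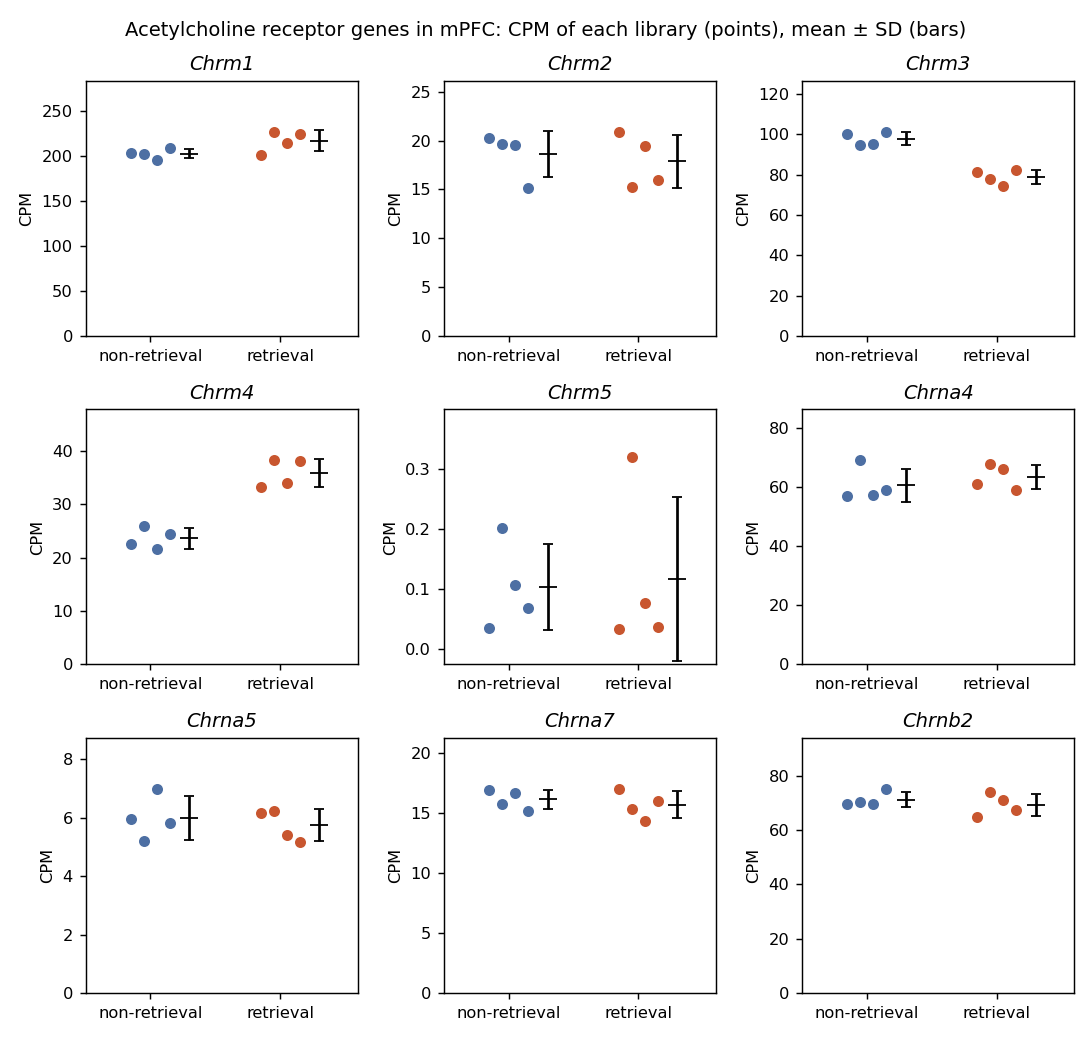
Level of each of the 9 acetylcholine receptor genes in CPM (y axis, linear) for the 4 non-retrieval (blue) and 4 retrieval (red) libraries, with points in order of replicate number and the mean ± SD beside them. The groups are apart for Chrm4 (21.6 to 25.9 against 33.2 to 38.2 CPM) and Chrm3 (94.9 to 101 against 74.6 to 82.4 CPM) and overlap for the other 7 genes.

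The ratio of 2 genes within a library does not depend on how libraries are scaled. Per length of the counted gene model (RPKM, CPM per kilobase), Chrm4 over Chrm3 was 0.975, 1.18, 0.984 and 1.05 in non-retrieval replicates 1 to 4. In retrieval replicates 1 to 4 the ratio was 1.77, 2.13, 1.97 and 2.01. Both genes therefore stood at similar values per length of their counted models without retrieval, and Chrm4 was the higher one in every retrieval library. These models are unlike: that of Chrm4 has 1440 bases, nearly all coding, and that of Chrm3 has 6253 bases with untranslated sequence. Similar values per length thus need not mean similar transcript levels. The summed RPKM of the Gq/11-coupled genes (Chrm1, Chrm3 and Chrm5) over that of the Gi/o-coupled genes (Chrm2 and Chrm4) was 2.20 to 2.50 in non-retrieval and 1.64 to 1.68 in retrieval. No test was made on these ratios, since the genes that set them were already compared.

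The RefSeq start sites of both genes are shown with the 250 bases upstream of them (GRCm38.p6), together with those of Chrna7, a member that did not pass but was the only one with more than 1 motif match. Capitals mark matches to the motifs searched on both strands. These were the EGR motif GCGNGGGCG, the AP-1 motif TGANTCA, the CRE TGACGTCA and its half-site TGACG, the E-box CACGTG and the REST half-site TTCAGCACC. A CRE always holds its half-site, so those matches overlap.
Chrm4, chr2:91921939-91922188, plus strand: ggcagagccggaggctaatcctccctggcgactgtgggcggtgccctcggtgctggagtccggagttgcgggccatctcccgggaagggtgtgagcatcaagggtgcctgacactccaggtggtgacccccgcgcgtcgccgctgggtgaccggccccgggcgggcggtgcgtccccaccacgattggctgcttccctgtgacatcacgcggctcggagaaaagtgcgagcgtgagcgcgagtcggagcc
Chrm3, chr13:10360804-10361053, minus strand: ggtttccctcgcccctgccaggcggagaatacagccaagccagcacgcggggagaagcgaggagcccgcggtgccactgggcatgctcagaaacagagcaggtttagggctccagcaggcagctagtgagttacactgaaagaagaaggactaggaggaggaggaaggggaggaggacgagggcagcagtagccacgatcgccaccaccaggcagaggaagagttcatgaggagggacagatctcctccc
Chrna7, chr7:63212527-63212776, minus strand: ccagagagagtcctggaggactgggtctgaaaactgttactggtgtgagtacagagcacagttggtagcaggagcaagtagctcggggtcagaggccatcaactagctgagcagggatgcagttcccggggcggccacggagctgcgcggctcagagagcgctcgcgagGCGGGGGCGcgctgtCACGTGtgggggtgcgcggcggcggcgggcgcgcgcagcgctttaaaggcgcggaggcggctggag

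The Chrm4 and Chrm3 windows held none of these letters. The Chrna7 window held 1 EGR match 81 bases and 1 E-box 66 bases before the start site. Of 32851 RefSeq promoter windows of the same length, 4.70% held the EGR motif, 6.75% the AP-1 motif, 1.55% the CRE, 17.8% the CRE half-site, 6.02% the E-box and 0.301% the REST half-site. Among the other members with an entry, Chrnb2 held 1 CRE half-site, as did 1 of the 2 Chrna5 windows, while Chrm2, Chrm5 and Chrna4 held none. Chrm1 had no entry. The Chrm4 window was rich in G and C (70.0%, 26 CpG), as was that of Chrna7 (67.2%, 25 CpG), against 61.2% and 10 CpG for Chrm3 and a median of 52.4% and 6 CpG over all windows. A match is a description of letters and says nothing about binding.

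The counted model of Chrm4 is 1 exon of 1440 bases, nearly all of it coding sequence (1437 bases without the stop codon), and it begins 5060 bases downstream of the RefSeq start site. Reads from the upstream exon and from the 3' end of the transcript were therefore not part of its count. The model of Chrm5 is of the same kind (1 exon, 1599 bases). The other 7 models span 3126 to 8380 bases and include untranslated sequence. No other annotated gene overlaps an exon of Chrm4 or Chrm3.

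**Figure D2:**
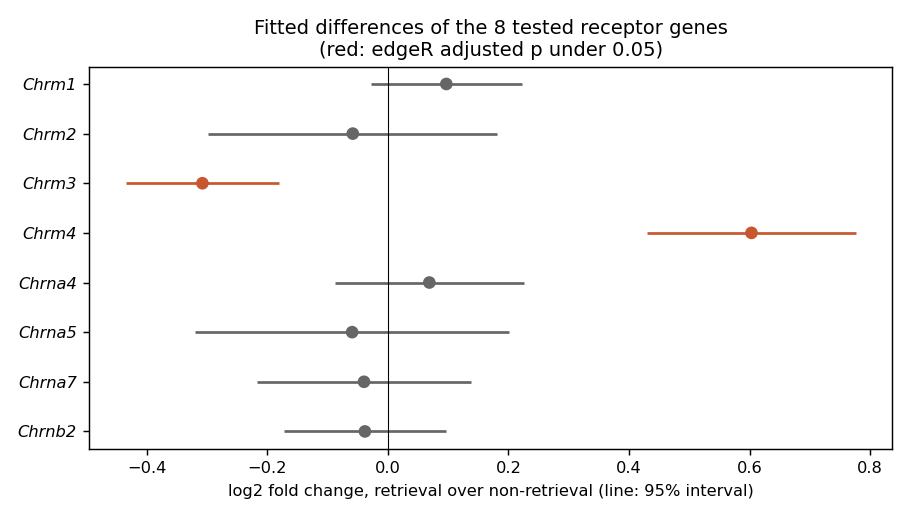
Log2 fold change of retrieval over non-retrieval (x axis) for the 8 tested receptor genes, with 95% intervals as lines. Chrm4 (0.60) and Chrm3 (-0.31), in red, passed the test, and the intervals of the other 6 genes include 0.

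Of the other muscarinic genes, Chrm1 and Chrm2 did not pass the test. Chrm1 (chromosome 19, 8663789 to 8683587), which encodes the main Gq/11-coupled receptor of cortical pyramidal neurons, had 204, 203, 196 and 210 CPM in non-retrieval replicates 1 to 4. In retrieval it had 202, 227, 215 and 225 CPM, so that 3 retrieval libraries were above the non-retrieval range and replicate 1 lay within it. The means were 203 ± 5.46 and 217 ± 11.7 CPM (SD, n = 4), and the log2FC of 0.10 (SE 0.06, 95% interval -0.03 to 0.22) did not pass (edgeR adjusted p = 0.409). Chrm2 (chromosome 6, 36388084 to 36528414), an autoreceptor on cholinergic terminals that is also found on interneurons, had 20.3, 19.6, 19.5 and 15.2 CPM in the non-retrieval group and 20.9, 15.2, 19.5 and 16.0 CPM in the retrieval group. Both groups held low and high libraries, and the log2FC was -0.06 (SE 0.11, 95% interval -0.30 to 0.18; edgeR adjusted p = 0.828). Of its exons, 142 bases overlap the long non-coding RNA 9330158H04Rik on the opposite strand, whose own mean count was 20.8 reads per library. Chrm5 (chromosome 2, 112479171 to 112480769), known from dopamine neurons of the midbrain, had 1 to 9 reads per library. It had 1, 5, 3 and 2 reads in non-retrieval and 1, 9, 2 and 1 in retrieval. At 3 reads a library stands at 0.101 to 0.121 CPM, so most of these values are at or under what a count of 0 allows, and no fold is given.

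The nicotinic genes differed by less than their spread. Chrna4 (chromosome 2, 181018380 to 181043546), the agonist-binding subunit of the high-affinity nicotine receptor, had 56.9, 69.0, 57.2 and 59.1 CPM in the non-retrieval group and 60.9, 67.8, 66.1 and 59.1 CPM in the retrieval group. Its log2FC was 0.07 (SE 0.07, 95% interval -0.09 to 0.23; edgeR adjusted p = 0.670). Chrnb2 (chromosome 3, 89746195 to 89764632), the partner of alpha4 in that receptor, had 69.5, 70.4, 69.5 and 75.2 CPM in the non-retrieval group and 64.8, 74.0, 71.0 and 67.4 CPM in the retrieval group. The values of both genes interleaved between groups, and the log2FC of Chrnb2 was -0.04 (SE 0.06, 95% interval -0.17 to 0.10; edgeR adjusted p = 0.799). Of the Chrnb2 model, 1365 of 8380 bases overlap exons of Adar, an RNA-editing enzyme on the opposite strand with a mean count of 5257 reads, and reads there cannot be assigned without a strand setting. Per length, Chrna4 over Chrnb2 was 1.31 to 1.64 in non-retrieval and 1.46 to 1.57 in retrieval.

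Chrna5 (chromosome 9, 54980880 to 55007779), an accessory subunit known from layer 6 pyramidal neurons, had 5.95, 5.19, 6.99 and 5.82 CPM in the non-retrieval group and 6.16, 6.25, 5.40 and 5.18 CPM in the retrieval group. The log2FC was -0.06 (SE 0.12, 95% interval -0.32 to 0.20; edgeR adjusted p = 0.841), and with 129 to 196 reads per library its interval was the widest of the 8. Chrna7 (chromosome 7, 63098692 to 63212569), which forms the calcium-permeable alpha7 receptor, had 16.9, 15.7, 16.6 and 15.2 CPM in the non-retrieval group and 17.0, 15.4, 14.3 and 16.0 CPM in the retrieval group. Its log2FC was -0.04 (SE 0.08, 95% interval -0.22 to 0.14; edgeR adjusted p = 0.845). For all 4 nicotinic members the groups overlapped, and the intervals leave room for a log2FC as low as -0.32 for Chrna5 and -0.17 for Chrnb2. In simulated counts, 48% of genes changed by 0.3 on the log2 scale and 78% of those changed by 0.5 were recovered, so small differences in these genes would often be missed.

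By level per length, over all 8 libraries, the order was Chrm1 (32.4 ± 1.75 RPKM, SD, n = 8), Chrm4 (20.6 ± 4.79), Chrm3 (14.1 ± 1.68), Chrna4 (12.3 ± 0.97), Chrnb2 (8.38 ± 0.40), Chrna7 (3.53 ± 0.21), Chrm2 (3.02 ± 0.39), Chrna5 (1.88 ± 0.20) and Chrm5 (0.069 ± 0.063). Chrm1 was above Chrm4, Chrna4 above Chrnb2, Chrnb2 above Chrna7, Chrm2 above Chrna5 and Chrna5 above Chrm5 in all 8 libraries with ranges that did not overlap. The ranges of Chrm4 and Chrm3 overlapped, as did those of Chrm3 and Chrna4 and those of Chrna7 and Chrm2, and each of the first 2 pairs kept its order in 6 of 8 libraries and the last in 7. The level of Chrm4 refers to coding sequence only. Of the summed RPKM of the 9 genes, Chrm4 made up 17.7% ± 0.99 in non-retrieval and 24.8% ± 1.02 in retrieval (SD, n = 4), Chrm3 16.9% ± 0.66 and 12.6% ± 0.73, and Chrm1 33.8% ± 0.68 and 33.4% ± 0.73.

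The calls of Chrm4 and Chrm3 held with any 1 library left out, at edgeR adjusted p up to 0.00352 for Chrm4 and up to 0.0403 for Chrm3. M4 receptors are abundant in striatal projection neurons, a neighbouring cell population. In retrieval replicate 2, where striatal markers were highest (mean log2 CPM 5.10, against 4.10 to 4.39 in the other 7 libraries), Chrm4 was at 38.2 CPM. Without retrieval replicate 2 its log2FC was 0.57 (edgeR adjusted p = 0.000885). With the striatal marker mean as a covariate the log2FC was 0.56 for Chrm4 (edgeR adjusted p = 0.00124) and -0.29 for Chrm3 (edgeR adjusted p = 0.0271). Whether striatal tissue has a part in either difference was not tested.

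The oligodendrocyte marker mean separated the groups by itself, though narrowly, at 7.22 to 7.45 log2 CPM in non-retrieval and 7.45 to 7.95 in retrieval. The closest libraries were non-retrieval replicate 2 (7.447) and retrieval replicate 3 (7.450). None of the 10 oligodendrocyte markers was at 0 in any library. With the oligodendrocyte marker mean as a covariate neither call held. The log2FC of Chrm4 was 0.43 (edgeR adjusted p = 0.0695), against 0.60 without the covariate. That of Chrm3 was -0.31 (edgeR adjusted p = 0.126), and also -0.31 without the covariate. In the fit with the covariate the marker level and the group cannot be told apart.

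**Figure D3:**
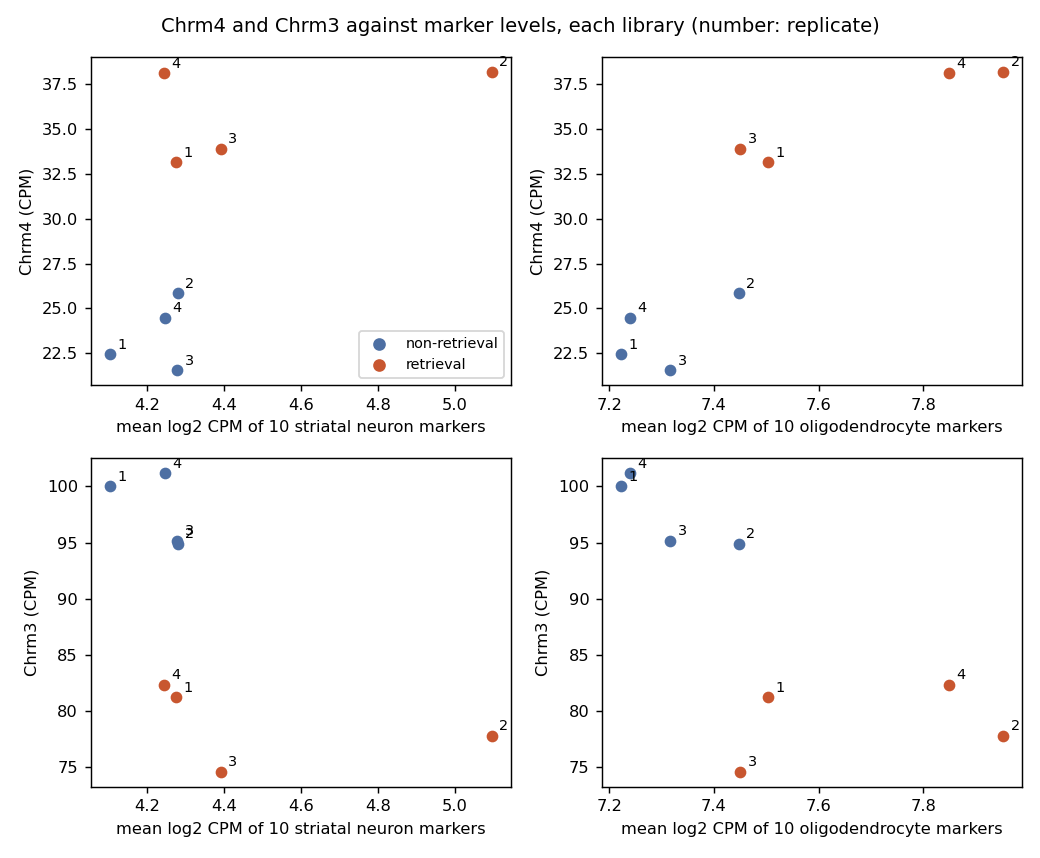
Chrm4 (upper row) and Chrm3 (lower row) in CPM on the y axis, against the mean log2 CPM of 10 striatal projection neuron markers (left) and 10 oligodendrocyte markers (right) on the x axis, 1 point per library with its replicate number. Retrieval replicate 2 stands apart on the striatal axis (5.10, against 4.10 to 4.39 in the other 7 libraries), and the groups lie side by side on the oligodendrocyte axis (7.22 to 7.45 and 7.45 to 7.95); y axes do not start at 0.

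**Figure D4:**
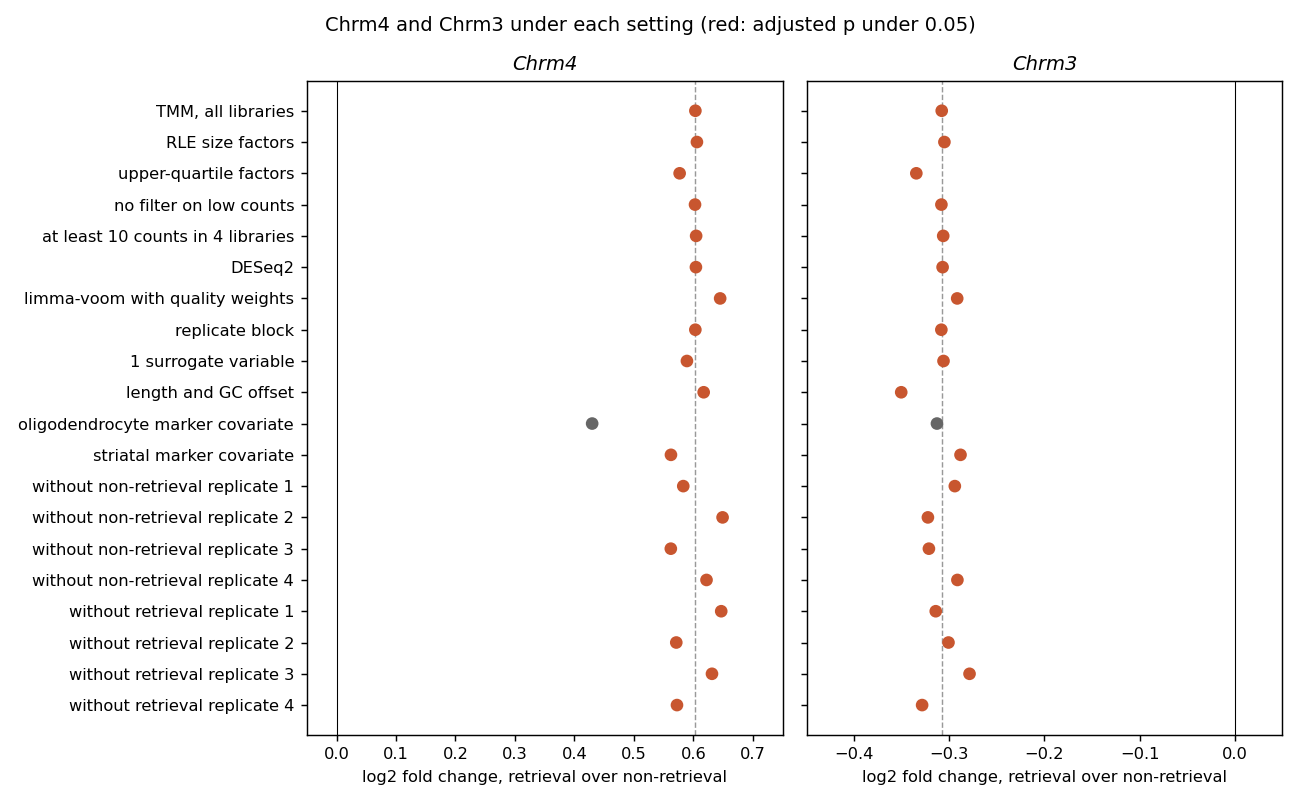
Log2 fold change of Chrm4 (left) and Chrm3 (right) under each fit, including those with 1 library left out, with adjusted p under 0.05 in red and the reported value as a dashed line. Chrm4 lies between 0.43 and 0.65 and Chrm3 between -0.35 and -0.28, and in the fit with the oligodendrocyte covariate (grey) neither gene passes.

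Among the remaining nicotinic subunits, read numbers were low and none passed. Of 12 genes, 5 were tested, and their log2FC values ran from -0.47 to 0.12. Chrnb3 had means of 2.08 ± 0.26 and 1.63 ± 0.46 CPM in non-retrieval and retrieval (SD, n = 4; log2FC -0.34; edgeR adjusted p = 0.429), and Chrna1 at 0.875 ± 0.152 and 0.631 ± 0.146 CPM (log2FC -0.47; edgeR adjusted p = 0.397). The log2FC of Chrnb3 was -0.20 without retrieval replicate 3 and -0.53 without retrieval replicate 1. Chrna9, Chrnd and Chrng had 0 reads in all 8 libraries, which allows up to 0.101 to 0.121 CPM per library.

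Genes for making, storing and clearing acetylcholine did not pass either (0 of 6 tested, of 7 listed). Chat, the synthesizing enzyme that defines cholinergic neurons, had 3 to 12 reads per library, and the choline transporter gene Slc5a7 had 13 to 31. The cholinergic neuron transcription factor genes Isl1, Lhx8 and Gbx1 were each at 0 in at least 1 library. Ache, which encodes acetylcholinesterase, had 77.5 to 80.9 CPM in non-retrieval and 66.9 to 76.9 CPM in retrieval. Its groups did not overlap, which held for 11.1% of all tested genes. The log2FC of Ache, -0.16 (SE 0.06), did not pass (edgeR adjusted p = 0.179, and 0.0119 with the length and GC offset). Prima1, the membrane anchor of that enzyme, had a log2FC of 0.47 (SE 0.23; edgeR adjusted p = 0.279), and of 0.28 without retrieval replicate 2.

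Of 10 chaperones and Ly6-family modulators of nicotinic receptors, 9 were tested and none passed, with 3 at an unadjusted p under 0.05, a level that 18.5% of all tested genes reached. Lynx1, a membrane-tethered protein that dampens nicotinic currents, had 529, 553, 566 and 605 CPM in the non-retrieval group and 439, 502, 512 and 501 CPM in the retrieval group. All retrieval values were below all non-retrieval values, but the log2FC of -0.21 (SE 0.07, 95% interval -0.34 to -0.07) did not pass (edgeR adjusted p = 0.0905). DESeq2 (adjusted p = 0.0368) and limma-voom (adjusted p = 0.0367) placed Lynx1 under the threshold. So did the surrogate variable (edgeR adjusted p = 0.00369) and the length and GC offset (edgeR adjusted p = 0.00182). Of 12 alternatives that kept all libraries, 5 called Lynx1, the replicate block among them. With 1 library left out, Lynx1 was called in 0 of 8 fits (edgeR adjusted p 0.0756 to 0.261). Without retrieval replicate 1 its log2FC was -0.15. Lypd6b, another Ly6 protein, had 18.7 ± 0.40 and 16.1 ± 1.02 CPM (SD, n = 4; log2FC -0.21; edgeR adjusted p = 0.150), again with groups that did not overlap.

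Downstream of the muscarinic receptors, 1 of 12 tested genes of the Gi/o arm rose and none of 13 tested genes of the Gq/11 arm passed, beside 3.67% of all tested genes called higher and 0.902% called lower. A count of 1 in a list this small is to be read beside that background, and the arms were not tested against each other. Gnai3, an inhibitory G protein alpha subunit, had 29.3, 26.1, 29.3 and 24.5 CPM in the non-retrieval group and 37.0, 32.8, 34.3 and 35.2 CPM in the retrieval group. It rose without overlap between groups (log2FC 0.35, SE 0.08, 95% interval 0.18 to 0.52; edgeR adjusted p = 0.0178). The call of Gnai3 was lost when non-retrieval replicate 4 was left out (edgeR adjusted p = 0.0744), when retrieval replicate 4 was left out (edgeR adjusted p = 0.0543) and with the oligodendrocyte covariate (edgeR adjusted p = 0.1003). Kcnj3, a GIRK channel subunit of the same list that was picked out after its values were seen, had 109 ± 9.22 and 91.9 ± 11.9 CPM in non-retrieval and retrieval (SD, n = 4; log2FC -0.25, SE 0.09; edgeR adjusted p = 0.126). Kcnj3 was called lower without a filter on low counts, with limma-voom, with the surrogate variable, with the length and GC offset and without retrieval replicate 1. Adcy5, of the same list and likewise picked out after its values were seen, had a higher mean in retrieval (log2FC 0.21, SE 0.09, edgeR adjusted p = 0.190). It was called higher with limma-voom, with the surrogate variable and without retrieval replicate 1. Calls with the replicate number as a block are given further below. In the Gq/11 arm the smallest p belonged to Kcnq5, a subunit of M-type potassium channels (log2FC -0.16; edgeR adjusted p = 0.235), and Plcb1, the phospholipase C isoform of cortical Gq signalling (-0.14; edgeR adjusted p = 0.283). Kcnq5 was called lower with the surrogate variable (edgeR adjusted p = 0.0377) and with the length and GC offset (edgeR adjusted p = 0.0257). Plcb1 was called lower with limma-voom (adjusted p = 0.0459) and with the length and GC offset (edgeR adjusted p = 0.00786). With 1 library left out, each of these 2 genes was called in 0 of 8 fits. The median log2FC was 0.07 in the Gi/o arm and 0.01 in the Gq/11 arm, beside -0.01 over all tested genes.

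Of 13 RGS, GRK and arrestin genes, which end or desensitize receptor signals, none passed. The 2 smallest p belonged to receptor kinase genes: Grk5 had a log2FC of 0.21 (edgeR adjusted p = 0.189) and Grk3 of 0.19 (edgeR adjusted p = 0.164). Across all 6 lists, 58 of 68 genes were tested and 1 was called, beside 4.57% of all tested genes, while 11 had an unadjusted p under 0.05, beside 18.5%. The number at that unadjusted level was thus near the background. Groups did not overlap for 1 of the 58 with higher and 3 with lower values in retrieval, beside 11.1% of all tested genes.

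**Figure D5:**
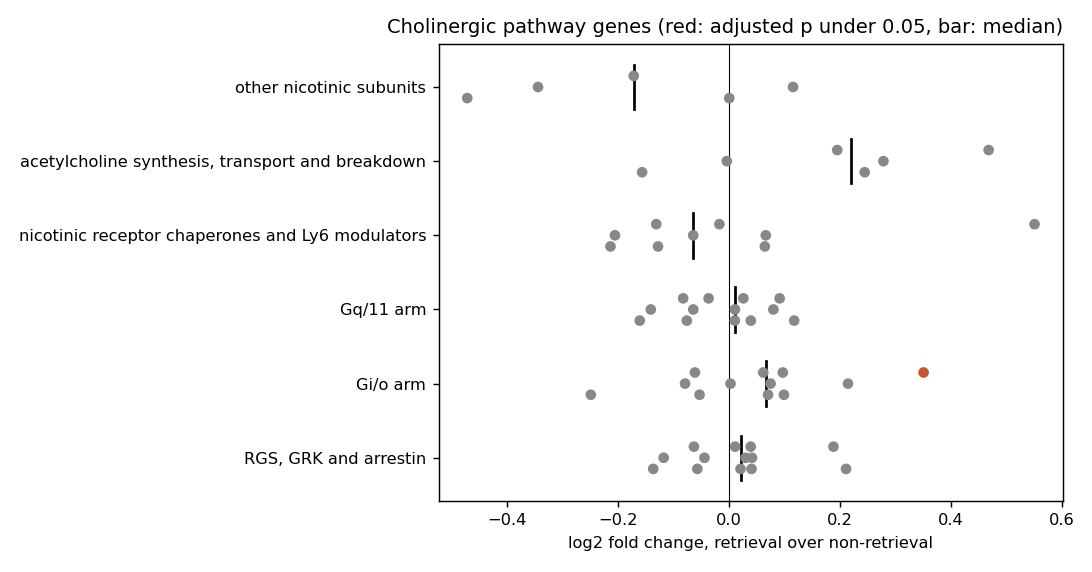
Log2 fold change of retrieval over non-retrieval (x axis) for the 58 tested genes of 6 cholinergic pathway lists (rows), 1 point per gene, with the median of each list as a bar. Gnai3 (0.35), in red, is the single gene past the test.

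The genes whose log2 CPM followed Chrm4 most closely over the 8 libraries, among 14534 compared, were Per1, a circadian period gene (Pearson r = 0.99), Gpr3, a constitutively active receptor (r = 0.99), and Ago1, an argonaute protein of RNA silencing (r = 0.99). Per1 and Gpr3 rose in retrieval (log2FC 1.07 and 0.98), and Ago1 had a log2FC of 0.20 (edgeR adjusted p = 0.0535). Among those nearest to Chrm3 was Cdk5, a neuronal kinase (r = 0.97), which did not pass the test (edgeR adjusted p = 0.126). Those nearest to Chrm1 were Plod3 (r = 0.98), Pxn (r = 0.97) and Tmbim1 (r = 0.97), none of them called. Among the members themselves, Chrm4 and Chrm3 had r = -0.89, and Chrm4 and Chrm1 r = 0.81. These values describe 8 libraries that share their groups, depth and scaling, and a difference between groups alone gives a high r.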

How the data were processed

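Per the labels' protocols, mPFC RNA was prepared with a RNeasy Micro kit and libraries with a NEBNext Ultra RNA kit. The authors deposited 1 raw count of reads for each gene and library. Alignment with HISAT2 2.0.5 to GRCm38 and counting with featureCounts 1.5.0-p3 come from the submitters' processing notes. Strand setting and annotation release are not given in the sources used; the deposited gene length equals the exon union of GENCODE M21 for 53325 of 54532 genes.

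Genes were filtered with filterByExpr (16745 left, 8 of the 9 members), scaled with TMM and tested between groups with the two-sided quasi-likelihood test of edgeR 4.0.16 (R 4.3.3), without a replicate block, with Benjamini-Hochberg adjustment. P-values measure the spread between pools. Intervals use the total degrees of freedom of each gene, which add the prior degrees of freedom of the fit to the residual ones. The members and gene lists were chosen with earlier results of these data known. Of 149 listed symbols 147 were found; the others are synonyms of Grk2 and Grk3. Named are all members, in each pathway list the called genes or else the 2 with the smallest p, and for 3 members the 3 genes with the highest correlation of log2 CPM (prior count 2, mean CPM of at least 1). A few genes that this rule or a marker list holds are not reported here.

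Alternatives used RLE and upper-quartile factors, other filters, DESeq2 1.42.0, limma-voom (limma 3.58.1), a replicate block, a surrogate variable (1, from sva 3.50.0), a length and GC offset (loess span 0.5; GC known for 99.9% of tested genes), 2 marker covariates, a threshold of 0.1 and leaving out each library. The pipeline was tested on simulated counts for 16482 tested genes, with 6 false calls among 166. The labels give no batch or date.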

Additional observations from a re-analysis of the deposited data

Results flagged for a closer look

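In 4 of 40 groups of 4 libraries (each member and named pathway gene, by group), 1 library lay far from the other 3; chance gives about 1 such group in 20. Chrm2 was at 15.2 CPM in non-retrieval replicate 4 against 19.5 to 20.3 CPM in the other 3. In the same library Chrnb2 was at 75.2 CPM against 69.5 to 70.4 CPM. Chrm5 was at 0.319 CPM in retrieval replicate 2 against 0.0337 to 0.0766 CPM, which is 9 reads against 1 to 2. Lynx1 was at 439 CPM in retrieval replicate 1 against 501 to 512 CPM. None of these concerns Chrm4 or Chrm3.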

How the results depend on the processing

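Over 20 alternatives for each of 8 tested members, 151 of 160 values kept their direction and their side of the threshold. The count of called members fell from 2 to 0 with the oligodendrocyte covariate and stayed at 2 in every other alternative, each time Chrm4 and Chrm3. Members near 0 changed sign: Chrm2 to 0.17 with the oligodendrocyte and 0.036 with the striatal covariate, and Chrna4 to -0.0054 with the oligodendrocyte covariate. With 1 library left out, Chrm2 ranged from -0.15 to 0.012, Chrna5 from -0.12 to 0.022, Chrna7 from -0.074 to 0.0034 and Chrnb2 from -0.072 to 0.00062. Among pathway genes, Plcb1 changed sign to 0.022 and Prima1 to -0.16 with the oligodendrocyte covariate. The count of called pathway genes (1) was 2 without a filter, 2 with DESeq2, 2 at a threshold of 0.1, 5 with limma-voom, 8 with the surrogate variable, 7 with the length and GC offset and 0 with the oligodendrocyte covariate. It ranged from 0 (without non-retrieval replicate 4 or retrieval replicate 4) to 3 (without retrieval replicate 1). Of the 5 with limma-voom, 2 were higher and 3 lower. Of the 8 with the surrogate variable, 3 were higher and 5 lower. Of the 7 with the length and GC offset, 1 was higher and 6 lower (Ache, Ric3, Lynx1, Plcb1, Kcnq5 and Kcnj3). The surrogate variable also called Ache (edgeR adjusted p = 0.0309), Lypd6b (0.0398) and Grk3 (0.0440).

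The count over all genes (766) was 1619 with limma-voom, 1756 with the surrogate variable, 1375 with the length and GC offset, 169 with the oligodendrocyte covariate and 1173 at a threshold of 0.1. With 1 library left out it ranged from 330 (without non-retrieval replicate 4) to 1360 (without retrieval replicate 1), and was also moved by leaving out non-retrieval replicate 3 (331), retrieval replicate 3 (420) or retrieval replicate 4 (397). The cause was not tested, apart from the covariates' own values. With the replicate number as a block, 1791 genes, 7 pathway genes (Gnai3, Grk3, Adcy5, Kcnj3, Kcnq5, Ache and Lynx1) and the same 2 members were called; edgeR adjusted p was 0.0289 for Grk3, 0.0376 for Kcnq5, 0.0477 for Ache and 0.00514 for Lynx1. Same-numbered libraries correlated at 0.733, 0.326, 0.0914 and 0.443 in their deviations, all of them positive. Of 4 retrieval libraries, 3 correlated best with their own number. Retrieval replicate 2 stood at 0.326 with its own number and at 0.348 with non-retrieval replicate 4. The value for number 3 was low (0.0914), and the labels do not explain the numbers. Whether the numbers mark pairs therefore cannot be decided here, and the main test was kept without a block. Depth limits Chrm5 and the rarer nicotinic subunits most.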
